A study of Arabidopsis thaliana with 12 samples.

Results

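Plastids and mitochondria keep small genomes of their own, and the transcripts read from those genomes were followed here in leaves of formaldehyde-assimilating Arabidopsis thaliana. The members are all probe sets that the array annotation pairs with exactly 1 gene on the plastid or the mitochondrial genome. There were 92 of them among 22746 probe sets tested (13513 with 1 gene). They comprised 69 plastid probe sets, each for a different gene, and 23 mitochondrial probe sets for 16 genes, so that 85 genes were covered. nad1 alone had 7 probe sets and nad5 had 2, and these share their gene. The gene table used here lists 85 protein-coding plastid and 33 mitochondrial genes.

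The plastid genome encodes core subunits of both photosystems, the cytochrome b6f complex, ATP synthase and an NDH complex that returns electrons to the plastoquinone pool, along with the large subunit of Rubisco, ribosomal proteins and a bacterial-type RNA polymerase. Most of its genes are transcribed in clusters by that polymerase and by a nuclear-encoded phage-type enzyme, and the remaining subunits of each complex are imported from the cytosol. The mitochondrial genome encodes parts of respiratory complex I (nad genes), subunits of complexes III and IV (cob, cox), factors that attach heme to cytochrome c (called ccb here) and a maturase of intron splicing. Plant organelle mRNAs mostly lack stable poly(A) tails. How the labelled targets were primed is not given in the sources used here.

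All 12 plants were Columbia with the AB genotype, meaning that rmpA and rmpB of Mycobacterium gastri MB19, which fix formaldehyde to a sugar phosphate, were expressed in their chloroplasts. Plants lacking the transgenes are not analysed here. Rosette leaves of 7-week-old plants were sampled after 72 h of acclimation in constant light at 24 °C and 150 min of treatment, with 3 plants in each of 4 groups: outside (not put into the chamber, under 0.08 ppm formaldehyde), air (10 L chamber, under 0.04 ppm), low (chamber, 1 to 2 ppm) and high (chamber, 14 to 16 ppm). Each chamber condition was a single run holding its 3 plants, so the effects of run and of condition cannot be told apart. The p-values cover the spread between plants only.

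Values are log2 intensities with 1 array per plant, and a change is the difference between group means on that scale. A probe set was called at a limma adjusted p under 0.05 over all 22746 probe sets, and it is said to rise or fall only then. In leaf pieces, fewer organelles or genome copies and less RNA from each cannot be told apart. Levels of different probe sets are not compared, since each has its own response.

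Mitochondrial signals were weak and plastid signals strong within the range of the array. Of the 23 mitochondrial probe sets, 5 lay within 0.5 of the lowest value of the table (2.11) on all 12 arrays, namely nad1 (257327_at), nad1 (257329_at), ccb203, orfX and matR, so they could show little. Another 2, nad7 and ccb206, stayed within 0.01 of their own lowest value on 9 arrays each. The filter of a mean at least 1 above the lowest value was passed by 17 mitochondrial and 68 plastid probe sets (nad6, described with its values, did not pass), and 43 plastid probe sets were among the top 5% of the table by mean. The plastid gene below the filter was ndhF, which read 3.17 in high plant 3 and 2.11 to 2.19 in the other plants.

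**Figure D1:**
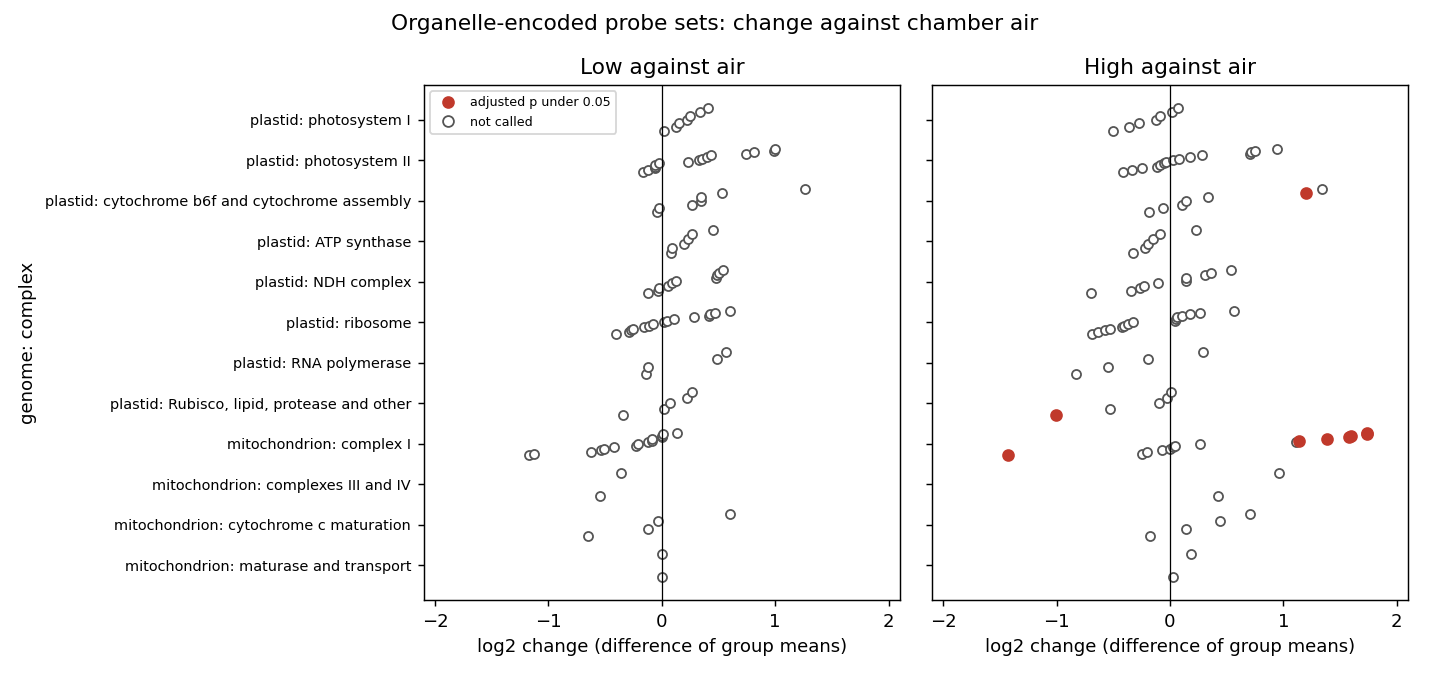
Log2 change against chamber air (horizontal axis) of the 92 organelle-encoded probe sets, grouped by genome and complex, for low plants (left) and high plants (right); each point is a probe set and filled points passed the limma adjusted p of 0.05. Filled points are absent on the left; on the right 7 of the 9 lie in mitochondrial complex I.

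The effect of strong exposure was read from high against air, with the chamber held the same. Most plastid transcripts did not pass the test, while a set of mitochondrial complex I probe sets rose. Of 69 plastid probe sets, 1 rose (petD) and 1 fell (rbcL), with a median of -0.08. Of 23 mitochondrial probe sets, 6 rose and 1 fell, all in complex I, with changes from -1.43 to 1.74 and a median of 0.26. That median was 0.08 without high plant 2, 0.41 without air plant 3 and 0.45 without high plant 3. Over all probe sets tested the median was 0.00 and 34.6% were called, 14.7% higher and 19.9% lower. The plastid share of 2.90% was below that background, and the mitochondrial share of 30.4% was near it. Above the filter, 35.3% of 17 mitochondrial probe sets were called, against 53.6% of all 14151. The count of mitochondrial calls is thus not by itself a result. Every high plant lay above every air plant for 8 plastid and 8 mitochondrial members and below for 10 and 1, where 17.3% and 24.1% of all probe sets did so.

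Plastid members varied more between plants of a group than most probe sets. Their median SD within groups was 0.37 over the 68 above the filter, against 0.43 for 17 mitochondrial and 0.23 for all 14151 probe sets above it. The median size of change between high and air plants was 0.26 for these plastid probe sets and 0.61 for all 14151, of which 53.6% were called. The plastid members thus had smaller changes and a larger spread.

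Complex I of the mitochondrion takes electrons from NADH into the respiratory chain. Its transcripts were measured by 15 probe sets for nad1, nad2, nad4, nad4L, nad5, nad6, nad7 and nad9, which encode membrane or matrix-arm subunits.

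The transcript of nad6, a membrane subunit, read 3.72, 4.72 and 4.07 in the 3 high plants and 2.24, 2.47 and 3.05 in the air plants. The low plants had 2.33, 2.42 and 2.37, and the outside plants 2.41, 2.45 and 2.45. Every high plant lay above all other plants, and 8 of the other 9 lay close to the lowest value of the table. The rise was 1.58 ± 0.26 (SE, n = 3 a group), or 3.00-fold, with an adjusted p of 0.00119.

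For nad5, another membrane subunit, probe set 257337_at gave 4.94, 5.73 and 4.09 in the high plants against 3.13, 3.21 and 3.22 in air. The low plants gave 3.08, 3.01 and 3.22, and the outside plants 3.13, 2.74 and 3.13. The groups did not overlap, and the 9 plants without the high dose spanned less than the 3 high ones. The rise was 1.73 ± 0.33 (3.33-fold, adjusted p = 0.00317). The second nad5 probe set, 257338_s_at, read 5.26, 5.69 and 4.64 in the high plants and 3.48, 4.27 and 4.44 in air. It rose by 1.14 ± 0.31 (2.20-fold, adjusted p = 0.0190), so both probe sets of the gene moved the same way.

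The small membrane subunit nad4L had 6.15, 6.72 and 5.54 in the high plants and 4.24, 4.74 and 5.27 in the air plants. Its low plants read 4.93, 4.02 and 4.61, and its outside plants 4.34, 4.39 and 4.30. High plant 3 and air plant 3 came closest without overlapping. The rise was 1.39 ± 0.36 (2.62-fold, adjusted p = 0.0150).

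The matrix-arm subunit nad9 read 7.31, 7.73 and 6.41 in the high plants, with 5.50, 6.36 and 6.26 in air. High plant 3 stood just above air plant 2, and the change of 1.11 ± 0.38 missed the threshold (adjusted p = 0.0515). Some alternative fits called it. nad4 gave 9.20, 9.85 and 8.97 in the high plants and 9.54, 9.34 and 9.06 in air, a change of 0.03 ± 0.22 with the groups overlapping throughout. nad2 (-0.21), with 3.16 to 4.11 over all plants, and nad7 (-0.07), with 3.08 to 3.50, were not called. The calls of nad5, nad6 and nad4L were thus not shared by nad4, whose mean (9.28) was the highest of the mitochondrial probe sets.

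**Figure D2:**
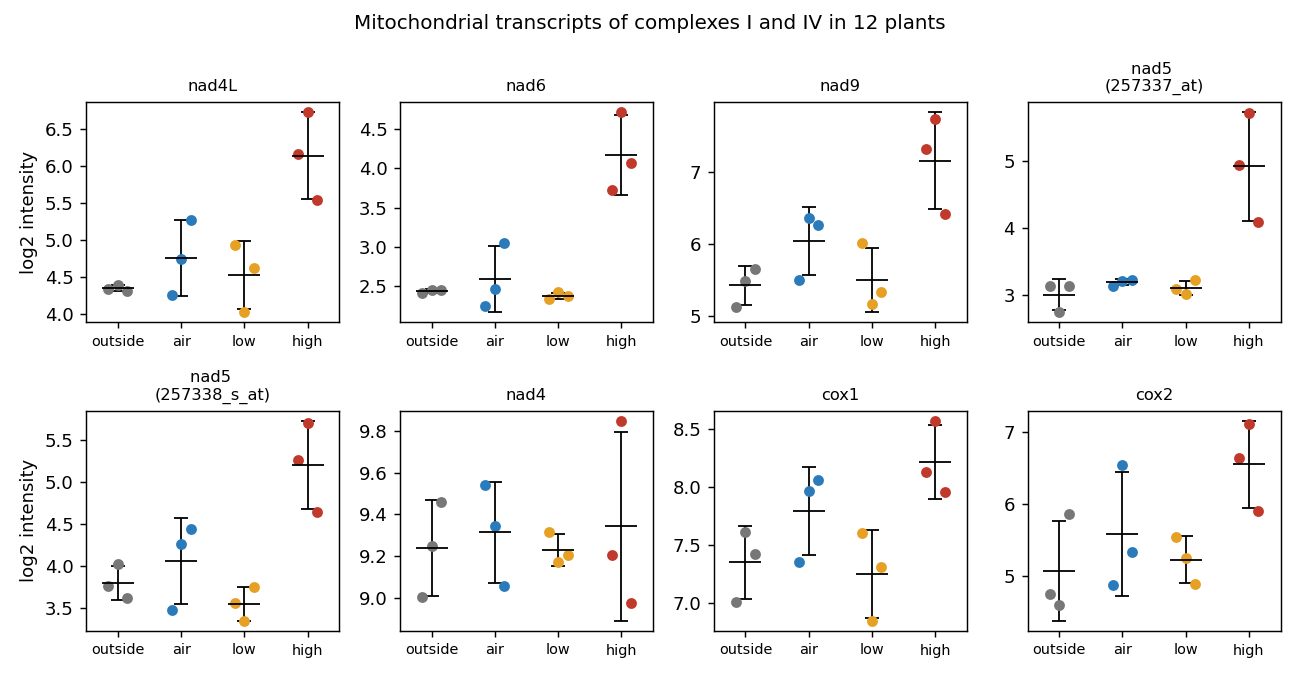
Log2 intensity (vertical axis, separate range per panel) of 8 mitochondrial probe sets in outside, air, low and high plants; points are single plants, horizontal bars group means and error bars SD (n = 3). For nad4L, nad6, nad9 and both nad5 probe sets every high plant lies above every plant of the other groups, whereas the groups overlap for nad4.

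The 7 probe sets of nad1 did not give 1 answer. This gene, whose mRNA is joined from separately transcribed pieces by trans-splicing in plants, encodes a membrane subunit. Probe set 257321_at rose by 1.59 ± 0.29 (3.02-fold, adjusted p = 0.00216), from 4.18, 4.50 and 4.06 in air to 5.47, 6.55 and 5.50 in the high plants. Probe set 257323_at rose by 1.74 ± 0.46 (3.34-fold, adjusted p = 0.0161), from 3.92, 5.24 and 4.68 to 6.45, 6.74 and 5.86.

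Both thus had all high plants above all air plants. Probe set 257322_at went the opposite way, with 4.29, 3.97 and 3.71 in the high plants and 4.71, 6.00 and 5.54 in air. It fell by 1.43 on the log2 scale (SE 0.31, adjusted p = 0.00556), and every high plant lay below the 9 others. The probe sets 257324_at (0.26, adjusted p = 0.829) and 257325_at (-0.25, adjusted p = 0.894) overlapped between high and air plants. The remaining 2 were at the lowest value. Which exon or intron each probe set reads was not analysed here.

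**Figure D3:**
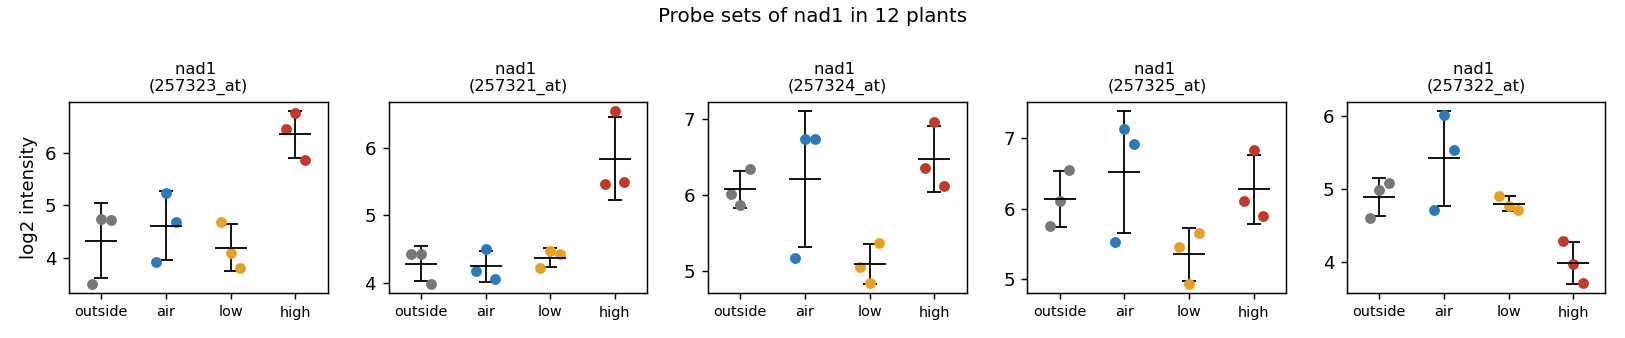
Log2 intensity (vertical axis, separate range per panel) of the 5 nad1 probe sets above the lowest value, by group; points are single plants, bars group means and error bars SD (n = 3). The high plants are above the air plants for 257321_at and 257323_at, below them for 257322_at and overlap with them for 257324_at and 257325_at.

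The cytochrome oxidase subunits cox1 and cox2, of complex IV, were not called against air. cox1 read 8.13, 8.57 and 7.95 in the high plants and 7.36, 7.97 and 8.06 in air (change 0.42 ± 0.27, adjusted p = 0.316), so that high plant 3 fell within the air range. cox2 read 6.64, 7.11 and 5.91 against 4.88, 6.55 and 5.34 (0.97 ± 0.51, adjusted p = 0.203), with air plant 2 inside the high range. Both subunits had higher means in the high group without a separation of the plants.

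Of the cytochrome c maturation genes, ccb206 read 3.98 and 4.93 in high plants 1 and 2 but its own lowest value, 3.21, in high plant 3 (change 0.71, adjusted p = 0.165). ccb382 (0.44), ccb203 (0.14) and ccb452 (-0.17) were not called either. The maturase matR (0.03) and the transport gene orfX (0.18) stayed near the lowest value. None of these 6 probe sets passed the test, and 13 members in all reached an unadjusted limma p under 0.05 in the upward direction (14.1%, against 17.4% of all probe sets) and 7 in the downward one (7.61% against 23.9%).

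Where the mitochondrial rises were largest, high plant 2 was the highest plant. Among 17 mitochondrial probe sets above the filter, high plant 2 was the highest of its group for 14 and high plant 3 the lowest for 14. The median deviation from each probe set's mean was 0.48, 0.99 and 0.15 in high plants 1, 2 and 3. In air plants it was -0.42, 0.31 and -0.06. Without high plant 2 the calls among all members fell from 9 to 5 (4 of them mitochondrial), and without air plant 1 the mitochondrial calls fell from 7 to 4. Over all probe sets 29.2% and 34.5% were called in these fits.

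**Figure D4:**
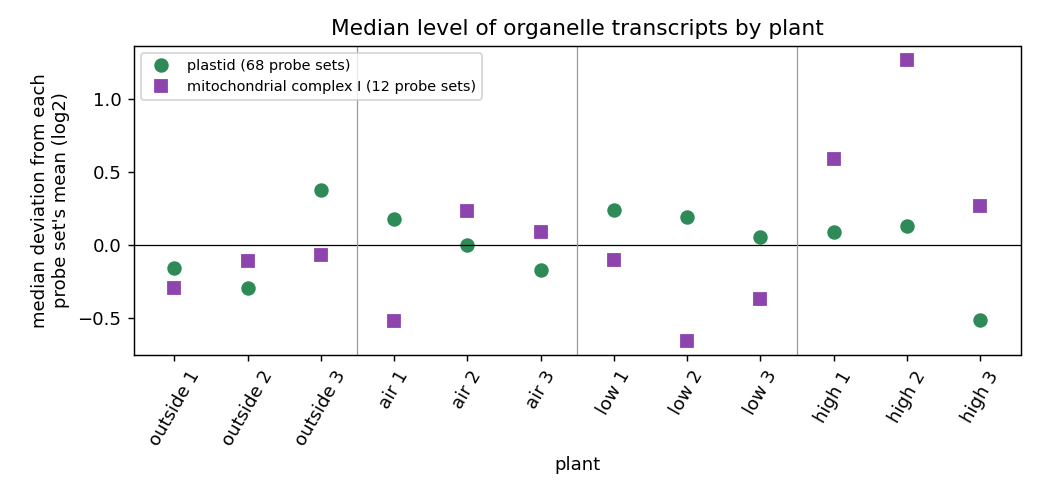
Median deviation of log2 intensity from each probe set's mean over the 12 plants (vertical axis) for plastid probe sets (circles) and mitochondrial complex I probe sets (squares) above the filter, plant by plant. The complex I medians are 0.59, 1.26 and 0.27 in high plants 1 to 3, and high plant 3 has the lowest plastid median, -0.52.

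The plastid results follow by complex. Photosystem I drives electrons from plastocyanin to ferredoxin, and 7 probe sets covered psaA, psaB, psaC, psaI, psaJ and the assembly factors ycf3 and ycf4. Of these, 0 were called in high against air by limma and 0 reached an unadjusted p under 0.05. Changes ran from -0.50 (psaA) to 0.07 (psaI), with a median of -0.12. The reaction-centre subunit psaB, with the highest mean of this group, had 14.52, 14.63 and 14.10 in the high plants and 14.64, 14.33 and 14.21 in air. The other reaction-centre subunit, psaA, had 12.67, 12.65 and 10.99 in the high plants against 12.61, 12.66 and 12.53, so its lower mean came from high plant 3.

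Photosystem II, which splits water, had 15 probe sets and 0 calls. Changes ran from -0.42 (psbM, adjusted p = 0.0616) to 0.94 (psbK, adjusted p = 0.111). psbA, for the D1 protein that is replaced constantly in the light, read 13.47, 13.51 and 12.25 in the high plants and 13.33, 13.02 and 13.21 in air (-0.11 ± 0.48). High plants 1 and 2 lay above the air plants and high plant 3 below them.

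The cytochrome b6f complex links the photosystems, and ccsA helps to attach its heme. Of these 7 probe sets, petD rose. petD, for subunit IV, read 5.33, 5.85 and 5.03 in the high plants, 4.75, 3.95 and 3.92 in air, 4.66, 4.23 and 4.76 in the low plants and 4.13, 4.05 and 5.01 outside. The high plants lay above all others, by a narrow gap to outside plant 3. The rise was 1.20 ± 0.34 (2.30-fold, adjusted p = 0.0240). The genes that share its cluster did not rise with it: psbB had 0.03, psbT 0.08, psbH -0.33 and petB -0.18, none of them called. The small subunit petG had a larger change (1.34 ± 0.74) but was not called (adjusted p = 0.226), and it was also the member with the largest SD within groups (0.95). It read 9.12, 9.31 and 8.59 in the high plants, 8.34, 7.54 and 7.12 in air and 9.35, 6.13 and 8.95 outside. The high and low plants were above the air plants, and outside plant 2 was below all of them.

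Of the 5 genes outside these complexes, rbcL fell. This gene encodes the large subunit of Rubisco, the enzyme that fixes carbon dioxide. It read 8.67, 8.82 and 7.98 in the high plants, 9.39, 9.30 and 9.78 in air, 9.44, 8.91 and 9.09 in the low plants and 9.26, 9.58 and 10.30 outside. Every high plant lay below all others. It fell by 1.00 on the log2 scale (SE 0.31, 2.00-fold, adjusted p = 0.0319). The others were not called: the intron maturase matK had -0.53 (adjusted p = 0.0855), clpP, a protease subunit, -0.10, cemA, an envelope protein, -0.03, and accD, a subunit of the enzyme that starts fatty acid synthesis, 0.01.

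The calls of petD and rbcL rest on few plants. With arrays left out in turn, petD had a limma adjusted p of 0.083 without air plant 2, 0.083 without air plant 3, 0.054 without high plant 1 and 0.089 without high plant 2. rbcL had 0.057, 0.053 and 0.107 without air plants 1, 2 and 3, and 0.053 and 0.103 without high plants 1 and 3. With the replicate number as a block they had 0.051 and 0.066. Without air plant 2 or air plant 3 no plastid member was called, while without outside plant 2 there were 6, 5 higher and 1 lower. These fits called 29.6%, 30.8% and 34.5% of all probe sets.

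In the NDH complex, 10 probe sets gave 0 calls, with changes from -0.69 (ndhH, adjusted p = 0.33) to 0.54 (ndhG, adjusted p = 0.356). ndhI, with the highest mean of the group, changed by -0.10 ± 0.15. ATP synthase (6 probe sets) had 0 calls and changes from -0.32 (atpF) to 0.23 (atpI), and atpB, a catalytic subunit, had -0.22 ± 0.18. Neither complex had a member whose high plants all lay above the air plants, and ndhC alone had them all below (-0.27, adjusted p = 0.127).

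The plastid ribosome was covered by 15 probe sets, with 0 calls, a median of -0.32 and changes from -0.69 (rps16) to 0.56 (rps14). Of these, 3 had every high plant below every air plant, namely rps3 (-0.57, adjusted p = 0.0598), rpl33 (-0.52, adjusted p = 0.0753) and rps18 (-0.32, adjusted p = 0.299). For comparison, 24.1% of all probe sets tested had every high plant below every air plant. rpl32, the group's member with the highest mean, had -0.41 (adjusted p = 0.264).

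The bacterial-type plastid RNA polymerase has 4 plastid-encoded subunits. rpoB had -0.54, rpoC1 -0.82 and rpoC2 -0.20 against air, while rpoA, which lies in a ribosomal protein cluster, had 0.29. None was called (adjusted p = 0.524, 0.158, 1.00 and 0.108). For rpoC1 the high plants read 11.84, 11.79 and 10.47 and the air plants 12.26, 12.33 and 11.98. All high plants were below the air plants, but high plant 3 stood more than 1 log2 unit below high plants 1 and 2.

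High plant 3 was low for plastid transcripts in general. It was the lowest of its group for 56 of the 68 plastid probe sets above the filter (82.4%, against 38.7% of all 14151 probe sets), with a median deviation of -0.52. Outside plants 1 and 2 had -0.16 and -0.30, and outside plant 3 had 0.37, the highest of all plants. By complex, the medians of high plant 3 were -1.02 for photosystem I, -0.98 for the polymerase, -0.84 for ATP synthase and -0.73 for NDH, but -0.13 for photosystem II and -0.19 for the b6f group. The cluster of psbE, psbF, psbL and psbJ had a median of -0.13 in high plant 3 and 0.04 in outside plant 3, and that of rpoB, rpoC1 and rpoC2 had -1.14 and 0.68.

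The direction of the plastid median depended on high plant 3. Without that plant it was 0.16 in high against air, in place of -0.08. Leaving out outside plants 1 and 2 as well was a choice made after the values were seen. It could not alter this median, since each group had its own mean in the fit. That fit left outside plant 3 alone in its group and pooled the spread, so its calls are not given.

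**Figure D5:**
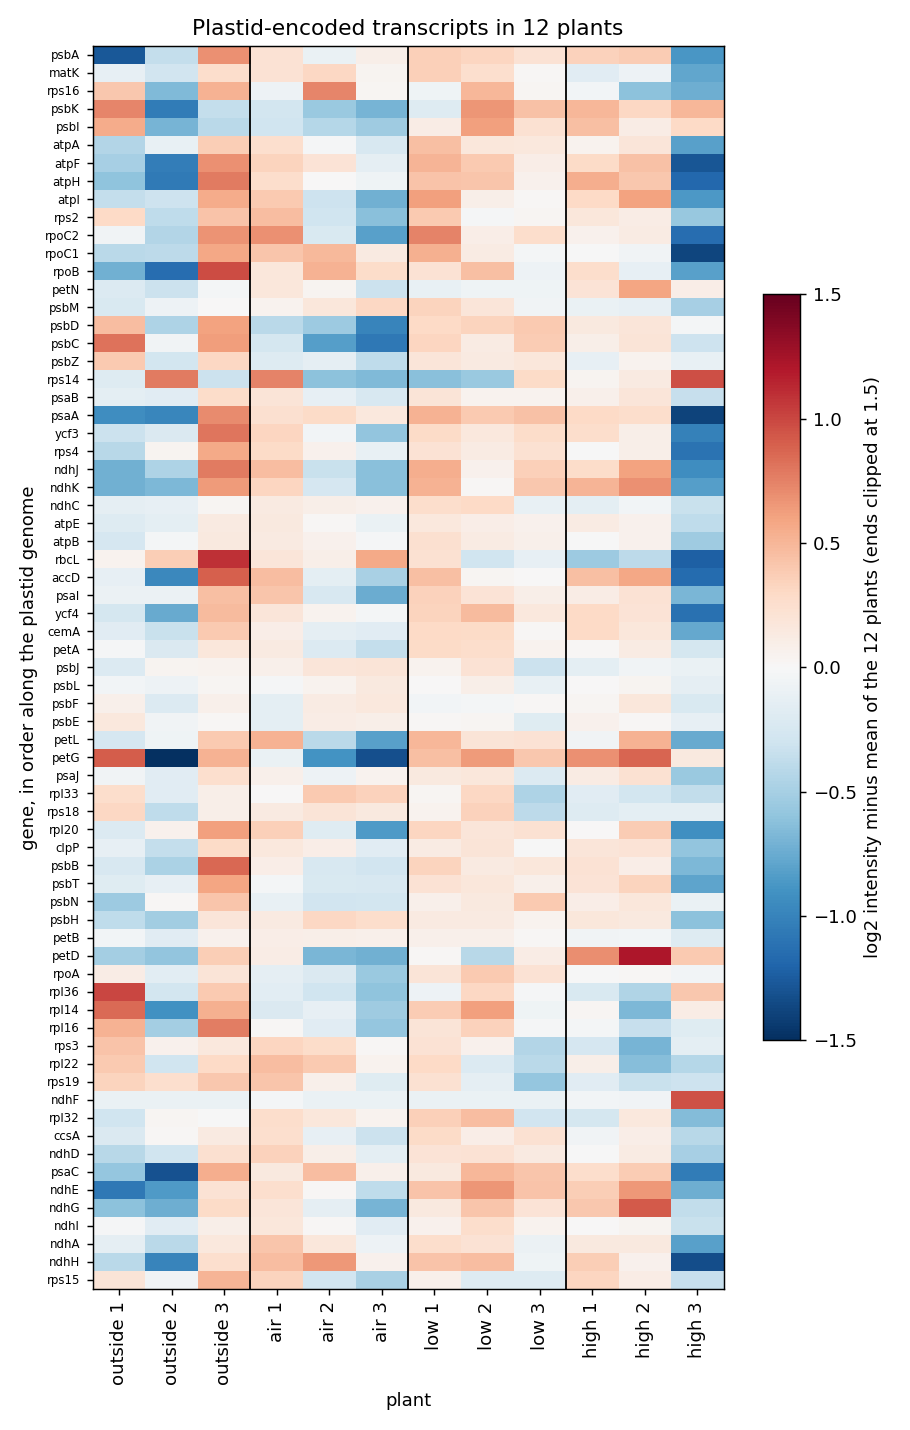
Plastid members (rows, in gene order along the plastid genome) in the 12 plants (columns, by group); colour is log2 intensity minus the mean of that gene over the 12 plants. High plant 3 and outside plants 1 and 2 are below the mean for most genes and outside plant 3 is above it. psbC is low in the air plants, and psbD and psbZ are low in the air plants and outside plant 2.

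Mild exposure, at 1 to 2 ppm, was read from low against air. None of the 92 members was called by limma, with 7 at an unadjusted p under 0.05 (5 plastid members higher, 2 mitochondrial lower), or 7.61% against 17.9% of all probe sets. At the adjusted threshold 1.24% of all probe sets were called, 0.756% higher and 0.488% lower. Plastid members had a median of 0.20, with 48 of 69 above 0, and mitochondrial members had -0.12 (from -0.23 without air plant 1 to -0.07 without air plant 2). Every low plant lay above every air plant for 15 plastid members and below for 0, where 8.77% and 10.6% of all probe sets did so. Of these 15, 9 belong to photosystem II. The plastid median rests on the air plants: it was 0.30 without air plant 1, 0.17 without air plant 2 and 0.05 without air plant 3. Without air plants 2 and 3, a choice made after the values were seen that leaves air plant 1 alone in its group, it was -0.02. All 7 photosystem I and all 6 ATP synthase members had fitted changes above 0, from 0.02 to 0.41 and from 0.08 to 0.45, but none of them was called.

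The member nearest to a call was rpoA, the polymerase's alpha subunit. It read 12.90, 13.10 and 12.93 in the low plants, 12.57, 12.49 and 12.15 in air, 12.71, 12.72 and 12.67 in the high plants and 12.82, 12.55 and 12.91 outside. The air plants were the lowest group, apart from outside plant 2, which fell among them. The change between low and air was 0.57 ± 0.12 (adjusted p = 0.0674).

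The photosystem II genes psbD, psbC, psbZ, psbK and psbI were singled out here after their values were seen. psbD and psbC encode the D2 and CP43 proteins of photosystem II and share a cluster with psbZ. psbD read 10.34, 10.38 and 10.43 in the low plants, 9.63, 9.49 and 9.05 in air, 10.19, 10.22 and 10.01 in the high plants and 10.51, 9.58 and 10.64 outside. psbC read 11.25, 11.05 and 11.31 in the low plants, 10.67, 10.10 and 9.85 in air, 11.02, 11.12 and 10.62 in the high plants and 11.75, 10.88 and 11.56 outside.

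For psbC every air plant lay below all others, while for psbD outside plant 2 fell among the air plants. The low plants varied least for both genes. The change between low and air was 0.99 ± 0.26 for psbD (adjusted p = 0.102) and 1.00 ± 0.27 for psbC (adjusted p = 0.108). Against air the high plants had 0.75 (adjusted p = 0.0525) and 0.71 (adjusted p = 0.0709). Both comparisons and the one with the outside plants share the air plants. psbZ, a small subunit of the same cluster, had 0.40 and 0.17 in low and high against air. psbK and psbI, small subunits of another photosystem II cluster, had 0.81 and 0.74 in low against air. In high against air they had 0.94 and 0.71. None of these values passed the test in the main fit. Some alternative fits called psbD and psbC higher in both comparisons, and psbK and psbI higher in high against air.

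Leaving out air plant 1 gave 5 calls in low against air, psbC and rpoA higher and 3 nad1 probe sets (257322_at, 257324_at, 257325_at) lower. That fit called 9.89% of all probe sets, against 1.24% with all arrays, so the count rose over the whole table. The 3 nad1 probe sets were low in air plant 1 and high in air plants 2 and 3, for example 5.17 against 6.73 and 6.73 for 257324_at, whose low plants read 5.06, 4.84 and 5.37. Air plant 1 was the lowest of its group for 14 of 17 mitochondrial probe sets above the filter and the highest of its group for 50 of 68 plastid ones.

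The concentrations were set against each other in high against low. Of the 92 members 9 rose and 0 fell, all 9 mitochondrial (39.1% of 23), against 33.8% called over all probe sets, 15.5% higher and 18.3% lower. The median change was 0.83 for mitochondrial and -0.28 for plastid members. By limma 0 of 69 plastid members were called (5 at an unadjusted p under 0.05), and 59 of 69 had fitted changes below 0. Every high plant lay above every low plant for 12 mitochondrial and 3 plastid members and below for 1 and 13, where 19.1% and 24.5% of all probe sets did so. The mitochondrial median was 0.38 without high plant 2. Without high plant 3 the plastid median was -0.06 and the median over all 92 members moved from -0.21 to 0.00.

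The 9 were nad6 (1.80, adjusted p = 6.05e-04), nad5 with 257337_at (1.82) and 257338_s_at (1.64), nad1 with 257323_at (2.16), 257321_at (1.46) and 257324_at (1.39), nad9 (1.65), nad4L (1.62) and cox1 (0.97, adjusted p = 0.0232). Their high and low plants did not overlap. nad9 read 7.31, 7.73 and 6.41 in the high plants and 6.01, 5.17 and 5.34 in the low plants, with an adjusted p of 0.00896. cox1 read 8.13, 8.57 and 7.95 against 7.60, 6.85 and 7.31. The complex IV partner cox2 had 1.32 (adjusted p = 0.081), also without overlap. nad1 with 257322_at had -0.81 (adjusted p = 0.0743). The call of cox1 was lost without low plant 2 (adjusted p = 0.085), low plant 3 (0.055), high plant 1 (0.050) or high plant 2 (0.087), and that of 257324_at without low plant 1 (0.074), low plant 2 (0.097), high plant 1 (0.064) or high plant 2 (0.111).

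The outside plants served as a second set of plants without added formaldehyde. Against them 11 members were higher in the high plants and 3 were lower, where 37.5% of all probe sets were called, 16.4% higher and 21.1% lower. Of the 23 mitochondrial members 10 were called, 9 higher and 1 lower, and of the 69 plastid members 2 were higher and 2 lower. This comparison shares the high plants with the others and is no independent repeat. It also mixes chamber and formaldehyde, since the outside plants were not put into the chamber.

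The chamber itself was read from air against outside. Of 92 members 1 was called, psbC, lower in the air plants by 1.19 on the log2 scale (psbC: adjusted p = 0.0387), against 5.60% called over all probe sets, 3.1% higher and 2.5% lower. Every air plant lay above every outside plant for 5 plastid members and 1 mitochondrial member and below for 1 plastid member, where 10.3% and 9.88% of all probe sets did so. psbD was next in its cluster with -0.85 (adjusted p = 0.102) and psbZ had -0.38 (adjusted p = 0.226). The call of psbC was lost in 14 of 24 alternatives, for example without outside plant 1 (adjusted p = 0.107), outside plant 3 (0.118), air plant 2 (0.118) or air plant 3 (0.111). Those 24 include fits that leave a group with 1 plant. Without outside plant 2, which was the lowest outside plant for all 3 genes of the cluster, psbC (-1.45), psbD (-1.19), psbZ (-0.58) and rpl16 (-0.88) were called. That fit called 3.49% of all probe sets. With all plants, the mitochondrial member nearest to a call was ccb452, with 1.01 (adjusted p = 0.0937).

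Nuclear genes that act in the same complexes were read from lists of 97 genes, of which 15 had a probe set with 1 gene. In high against air 3 rose and 6 fell, where 14.7% of all probe sets were called higher and 19.9% lower. Of all probe sets above the filter, 53.6% were called. The rises were in respiration, with the cytochrome c genes CYTC2 (2.81) and CYTC1 (0.94) and the complex IV subunit COX5B1 (0.44). The falls included the NDH assembly factor CRR42 (-4.92), the NDH subunits NDHN (-1.66) and NDHL (-1.16), the b6f subunit PETM (-0.50), the ATP synthase subunit ATPC1 (-0.45) and CP29B (-0.68), which binds plastid RNA.

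NDHL read 9.47, 9.35 and 10.09 in the high plants and 10.66, 11.23 and 10.51 in air, without overlap. By contrast 0 of 10 plastid-encoded NDH members were called, though the difference between nuclear and plastid members was not tested. In low against air 0 of the 15 were called by limma. Just 1 of 9 sigma factors and phage-type polymerases was measured, RPOTMP (0.06, not called), so little of the nuclear side of organelle transcription was measured.

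Markers of leaf tissue were strong, with 5 of 6 measured and RCA between 14.74 and 15.07. On the log2 scale, their summed intensity was 16.5 to 16.7 for high plants and 16.8 to 16.9 for air plants, and the Calvin cycle genes PRK (-0.96) and SBPASE (-0.92) among them fell. Of 9 markers of other tissues 3 were measured. Their summed intensity was 8.77 to 9.75 outside, 9.80 to 11.5 in air, 11.5 to 11.7 in the low and 9.74 to 10.2 in the high plants. The root marker PYK10 read 6.17 in air plant 3 and the lowest value elsewhere, while FMA, a regulator of guard cells, and AT1G22690 were above it in all plants. AT1G22690 carried most of the sum, with means of 9.11 outside, 10.6 in air, 11.6 in low and 10.00 in high plants. FMA went the other way between outside and air, where it fell by 1.23 (limma adjusted p = 0.041), and it fell by 0.83 in high against air (adjusted p = 0.049). The part of these markers in the organelle results was not tested.

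Signs of RNA quality were tested for any difference among the 4 groups, by exact permutation of the 12 arrays, and 3 of 8 measures passed. The 3' minus 5' signal of the first GAPDH control pair averaged 1.54 ± 0.03 (SD, n = 3) in high, 1.82 ± 0.23 in air, 1.97 ± 0.03 in low and 1.86 ± 0.02 in outside plants (exact permutation p over the 4 groups = 0.018, adjusted 0.048 over 8 measures). That of the second ubiquitin pair was likewise lowest in the high plants, with means of -0.48 in high, -0.37 in air, -0.30 in low and -0.40 in outside plants (exact permutation p over the 4 groups = 0.0035, adjusted 0.028). The second GAPDH pair had its highest mean in the high plants, with 0.23 against 0.03 in air, -0.07 in low and 0.10 in outside plants (exact permutation p over the 4 groups = 0.007, adjusted 0.029). High against air alone was not tested, since 3 plants against 3 cannot reach the threshold. The 25S rRNA control, for a cytosolic ribosomal RNA, was 4.04 in high plant 3, the lowest of all plants, and 5.87 in outside plant 3, the highest (exact permutation p over the 4 groups = 0.372). These were also the plants with the lowest and the highest plastid median, and the part of this signal in the plastid values was not tested.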

How the data were processed

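The authors deposited log2 intensities made with GCRMA (background correction from probe sequence and summary by probe set), per the submitters' processing notes (no source used here gives its version or options). They were used as deposited. Group means were compared with limma 3.58.1 in R 4.3.3 on all 12 arrays (eBayes with a trend on the mean, 8 residual degrees of freedom, two-sided tests, Benjamini-Hochberg over 22746 probe sets, 64 array controls left out). The number of arrays limits the precision. Summaries used Python 3.11.15, pandas 2.3.3 and matplotlib 3.10.9. In simulated data, 50 of 100 probe sets changed by 1 and 88 of 100 changed by 2 (log2) were called in high against air (22746 probe sets). Only these 200 were changed there, while 34.6% of all probe sets were called in the measured data, so the adjustment of p differed. Members above the filter also had a larger median SD within groups (0.37 plastid, 0.43 mitochondrial) than all probe sets above it (0.23). The power to call a member was thus not estimated.

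Plastid genes were matched to the gene table (TAIR10.1) by gene ID and mitochondrial ones by symbol or synonym. Much of the mitochondrial genome has a near-identical nuclear copy on chromosome 2, so reads of both can mix. The members, gene lists and clusters were chosen with earlier results of these data known. Named were, per complex, called members, extremes and the member with the highest mean, every call of the other comparisons, and rbcL, psbA, clpP, accD, matK, rpo, ccb and cox. Other members given with values (among them ndhC, rps3, rpl33, rps18 and nad9 against air) were chosen after their values were seen. The alternatives concerned normalization, filter, variance model, threshold, control group, replicate block and arrays left out. Same-numbered plants of different groups correlated at -0.27 to 0.23 in their deviations. Differently numbered plants were not compared, so this does not settle whether the numbers pair plants. The main fit treated them as unpaired.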

Additional observations from a re-analysis of the deposited data

How the results depend on the processing

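No alternative turned the direction of a called member. nad6 and nad1 (257321_at) stayed called in high against air in all 24 alternatives run for each, and nad6, nad9, nad4L, both nad5 and nad1 (257321_at, 257323_at) did so in high against low in the 23 or 24 run. Of the other high-against-air calls, petD was lost in 8 alternatives, rbcL in 10, nad5 (257338_s_at) in 5, nad4L in 4, nad1 (257322_at) in 3, nad1 (257323_at) in 2 and nad5 (257337_at) in 1. All of these tallies include the fits, described below, that leave a group with 1 plant. The main fit had 9 calls in high against air, where 34.6% of all probe sets were called. Arrays centred on a common median gave 15 (13 higher, 2 lower), against 35.1% of all probe sets. Arrays centred on the members gave 5 (5 higher), against 13.4%. Probe sets above the floor alone gave 18 (11 higher, 7 lower), against 58.8% of all those above it. There were 4 at an adjusted p under 0.01, 5 with 1 probe set a gene and 14 against the outside plants (37.5% of all). The low-against-air count of 0 became 3 with a common median, above the floor or with array weights. Those fits called 2.98%, 8.33% and 7.56% of all their probe sets. The high-against-low count of 9 became 14 above the floor, 17 with array weights (15 higher, 2 lower) and 5 with 1 probe set a gene. In that comparison the fits above the floor and with array weights called 57.04% and 40.2% of all their probe sets, against 33.8% in the main fit. The air-against-outside count of 1 became 3 above the floor and 2 with array weights, where 13.6% and 6.92% of all probe sets were called. It became 0 with arrays centred on the members (1.61% of all called), the 6 arrays alone (0.255%), the replicate block (3.71%) or at an adjusted p under 0.01. Leaving out high plant 3 with outside plants 1 and 2, or air plants 2 and 3, was chosen after seeing the data. Each of these 2 fits leaves a group with 1 plant (outside plant 3, or air plant 1) that is assumed to vary like the other groups. Counts of calls there say nothing about stability. With the replicate block, high against air had 8 calls (6 higher, 2 lower), against 33.1% of all probe sets. Leaving out each plant in turn gave 5 (high plant 2) to 13 calls in high against air, 0 to 5 (air plant 1) in low against air, 7 to 11 in high against low and 0 to 4 (outside plant 2) in air against outside. The shares of all probe sets called in these fits ran from 29.2% to 34.5%, 0.334% to 9.89%, 28.1% to 34.7% and 2.65% to 9.40%. The median change of the members then ran from -0.14 to 0.19, 0.02 to 0.10, -0.27 to 0.00014 and 0.00 to 0.18. Centred on the members, which moved the median of all probe sets by 0.13, -0.26, 0.39 and -0.21 in these comparisons, it was -0.21 in low against air, 0.18 in high against low and -0.15 in air against outside. Without high plant 3 and outside plants 1 and 2 it was -0.22 in air against outside. In high against low it was 0.00014, which leaving out the outside plants could not alter. Without air plants 2 and 3 it was -0.20 in high against air. The causes were not tested. Mitochondrial signals near the lowest value limit what could be seen there.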

Other observations

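Another 20 probe sets pair an organelle gene with a second gene and are not members. Some pair a plastid gene with a gene of the same name (such as rpl2 or ndhB), and none of those was called in high against air. Of the 20, 6 rose and 0 fell in high against air, and 0 were called by limma in low against air. Over all probe sets 14.7% were called higher and 19.9% lower in high against air. All 6 rises were of mitochondrial genes paired with a nuclear locus. The probe set shared by atp1, a catalytic subunit of mitochondrial ATP synthase, and the nuclear locus AT2G07698 read 11.40, 11.72 and 10.60 in the high plants and 8.56, 9.04 and 9.11 in air, a 5.04-fold rise. The one shared by rps4 and AT2G07734 rose 2.97-fold and that of cox3 and AT2G07687 rose 2.98-fold. The remaining rises were rps12 with AT2G07675 (0.97, within 0.5 of the lowest value on 9 arrays), rpl2 with AT2G07715 (0.59) and nad1 with AT2G07702 (0.09, at the lowest value). atp9 with AT2G07671 had 0.29 and cob with AT2G07727 had 0.88, and neither was called. For probe sets that pair a mitochondrial gene with a nuclear locus, which copy was read cannot be told apart.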
